A study of Homo sapiens with 27 samples.

Results

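The comparison of sh1 with sh2 in subconfluent cells set 2 stable lines of U2OS cells, each carrying a different short hairpin RNA against MMP2, against each other at the lowest density of the culture, and no control library entered the test. It rests on 6 of the 27 libraries of the series, 3 of each line, chosen by the line and the density that the sample labels give. U2OS is a human osteosarcoma cell line. The series followed a control line, sh1 (hairpin 23) and sh2 (hairpin 26) from day −2 (subconfluent, labelled proliferating) over day 0 (confluent) to day 2 (overconfluent), with 3 libraries per line and day. The study describes the control as pLKO.1 (a blank vector), whereas the titles of the control samples read WT. Both hairpin lines had been transduced with lentivirus and selected in puromycin. For the control this rests on its description as pLKO.1. Each hairpin is represented by a single line. The study describes a single medium for its U2OS cells, with serum and an antibiotic-antimycotic among its supplements, and names no other treatment of these lines. The libraries of a line are described as independent biological replicates, so differences between the lines hold the hairpin, its target level and any difference between the lines themselves, which cannot be told apart here. Poly(A) RNA was sequenced and the values are read counts per gene, of which 18784 of 55882 gene symbols passed the filter on low counts and were tested.

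MMP2 encodes matrix metalloproteinase 2, a secreted zinc protease that digests gelatin and basement membrane collagen and that was also described as a nuclear protease that clips the tail of histone H3. A short hairpin RNA is processed into a small RNA that guides the cell's RNA interference machinery to a matching mRNA, and hairpins of different sequence can lower the same target to different degrees and can also touch other transcripts. The comparison of both lines asks how cells with a strong loss of MMP2 mRNA differ from cells with a partial loss, both having gone through transduction and selection.

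The 6 libraries held 38189472 to 52076004 counts on genes (median 43253364), and the totals of the lines overlapped. Log2 CPM (CPM, the count of a gene per 1e6 counts on genes of the library, scaled with TMM factors) correlated at 0.993 to 0.9946 between libraries of a line (6 pairs) and at 0.9896 to 0.9926 between lines (9 pairs, Pearson's r across genes). Mitochondrially encoded genes took 4.24% to 6.55% of the counts in sh1 and 5.094% to 6.204% in sh2. In a principal component analysis of the 9 subconfluent libraries, the first component (40.3% of the variance of the 500 most variable genes) placed sh1 at 9.15 to 10.4, sh2 at −6.40 to −6.05 and the control at −4.80 to −3.18. Of the markers checked, 10 of 13 mesenchymal genes, 6 of 12 epithelial genes, 4 of 12 blood genes, 5 of 8 endothelial genes and 6 of 10 muscle, fat and cartilage genes passed the filter on low counts. The summed blood markers reached only 1.60 to 1.86 CPM in sh1 and 1.20 to 2.29 CPM in sh2, and no blood marker and no muscle, fat or cartilage marker was called between the lines.

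MMP2 itself set the lines apart. Its gene lies on chromosome 16 of GRCh37 (the build named hg19), chr16:55423612-55540603 on the plus strand. MMP2 was at 33.97, 39.5 and 46.8 CPM in the 3 sh1 libraries and at 136, 139.8 and 155 CPM in the 3 sh2 libraries, from 1256 to 6884 counted reads per library. Every sh1 library lay far below every sh2 library, and sh1 held 27.9% of the mean CPM of sh2. The log2 fold change of sh1 over sh2 was −1.84 (SE 0.0853, adjusted p = 5.4e-15). Every adjusted p given here comes from the quasi-likelihood test of edgeR, with the Benjamini-Hochberg method applied over all genes tested. In the control, measured alongside but outside this test, MMP2 was at 232 ± 14.2 CPM (SD, n = 3). Against that control, in fits of their own, sh1 stood at −2.53 (adjusted p = 1.1e-17) and sh2 at −0.70 (adjusted p = 2.1e-08) on the log2 scale, the same 3 control libraries serving both. In bulk RNA, fewer cells that express a gene and less of its RNA per cell cannot be told apart.

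CTSB, the lysosomal cysteine protease cathepsin B that the study followed as a further protease of the histone H3 tail, was at 717, 826 and 873 CPM in sh1 and at 1026, 1057 and 1164 CPM in sh2. The ranges did not overlap, and the log2 fold change was −0.43 (SE 0.0675, adjusted p = 6.6e-05). The control, at 873 ± 12.6 CPM, lay between the means of the lines, with log2 fold changes against it of −0.12 for sh1 (adjusted p = 0.23) and 0.31 for sh2 (adjusted p = 0.00046). The comparison of the lines therefore joined a small difference below the control in sh1, which did not pass the test, with a rise above it in sh2. Of 10 cysteine cathepsins tested, CTSF was the other one called lower, at 9.36, 9.98 and 9.74 CPM in sh1 against 12.8, 12.01 and 16.96 CPM in sh2 (−0.52 ± 0.128, adjusted p = 0.0076), and none was called higher. CTSF lost its call without sh2 replicate 3 (adjusted p = 0.092). Here and below, values in brackets after the CPM of a gene are its log2 fold change of sh1 over sh2 ± SE.

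**Figure D1:**
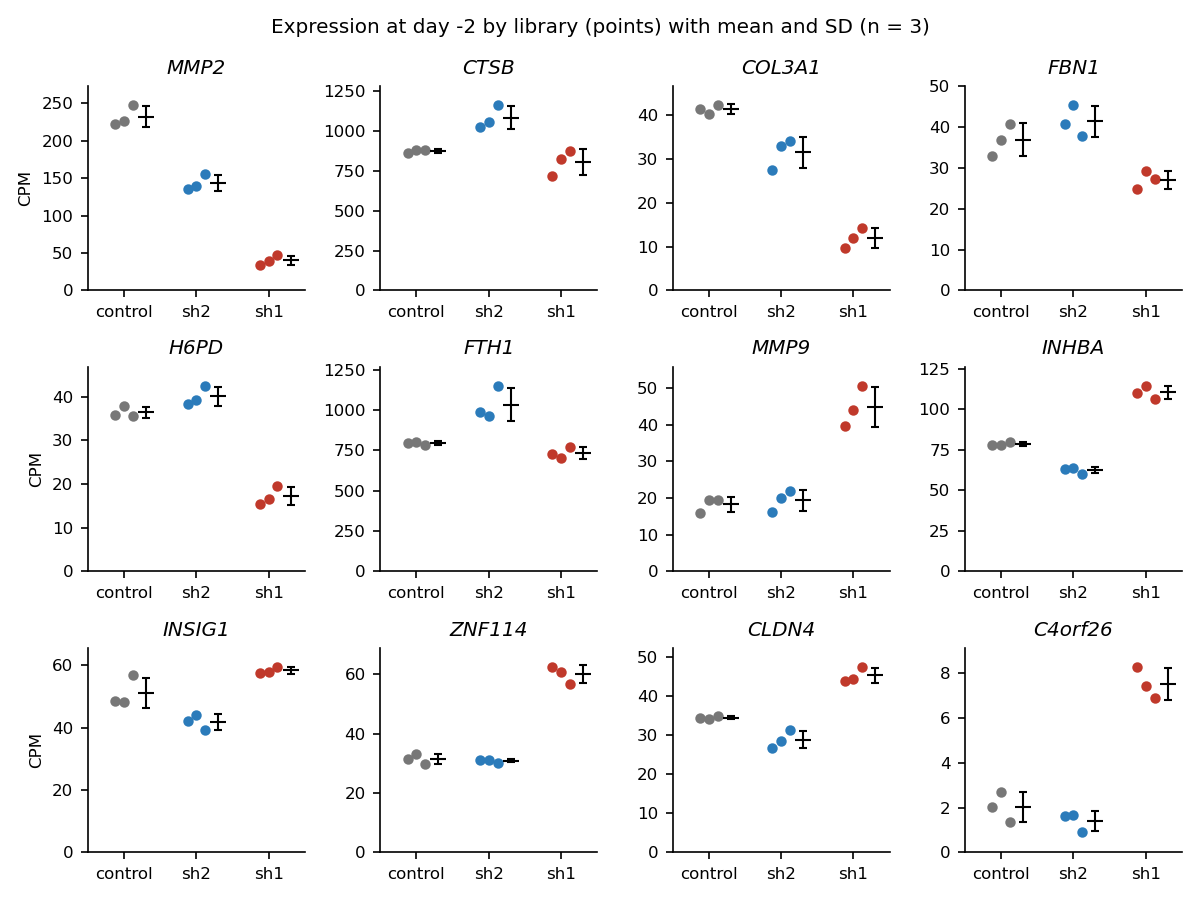
CPM at day −2 of 12 genes named in the text, 1 panel per gene, with every library of the control, sh2 and sh1 as a point and the mean and SD (n = 3) of each line beside its points. MMP2 falls stepwise from the control over sh2 to sh1, whereas MMP9, ZNF114 and C4orf26 are higher in every sh1 library than in any other library and H6PD and COL3A1 are lowest in sh1.

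Across the transcriptome, 2009 of 18784 genes tested were called (10.7%, adjusted p under 0.05), 941 higher in sh1 (5.01%) and 1068 lower in sh1 (5.69%). Counts of called members in the lists below stand against these shares. The median log2 fold change over all genes tested was −0.0012, and 4462 genes had an unadjusted p under 0.05. Most differences between the lines were small. Of the called genes, 1605 changed by less than 1.5-fold, 238 by 1.5 to 2-fold, 131 by 2 to 4-fold and 35 by over 4-fold, with a median absolute log2 fold change of 0.35. Among the 166 genes past 2-fold, 119 were higher in sh1 and 47 lower. The mean of the control lay between the means of the lines for 138 of these 166 genes, above both for 14 and below both for 14. These numbers were 102, 4 and 13 for the 119 genes higher in sh1, and 36, 10 and 1 for the 47 lower in sh1. Over all 2009 called genes they were 1511, 284 and 214. CPM of the lines did not overlap for 5190 of the 18784 genes (27.6%).

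**Figure D2:**
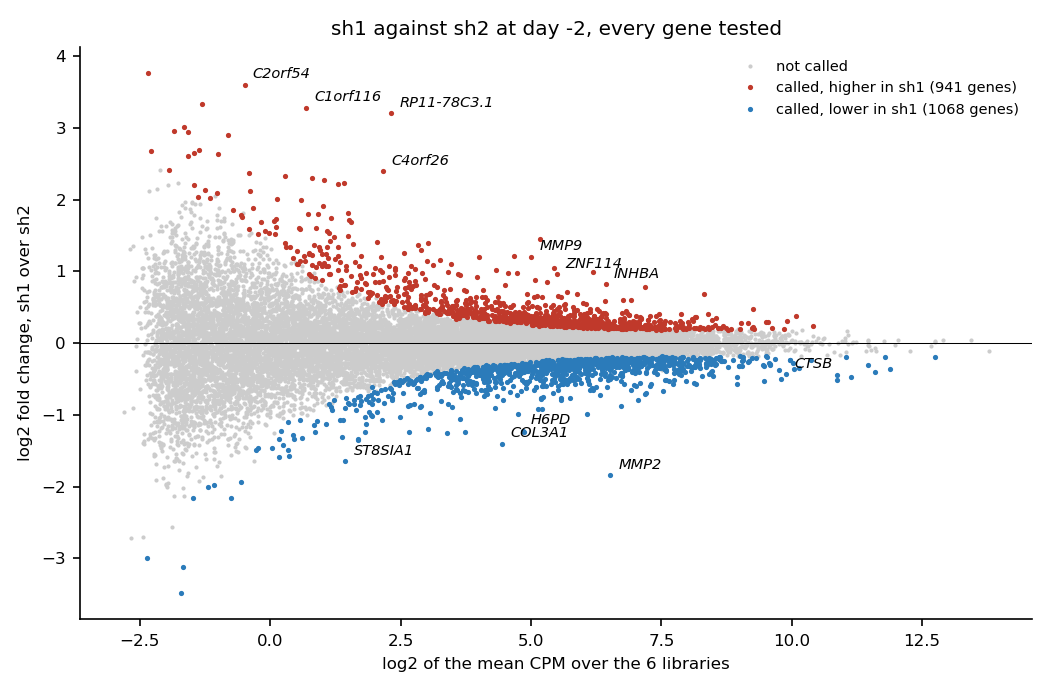
Each gene tested by its mean CPM over the 6 libraries (log2, horizontal axis) and its log2 fold change of sh1 over sh2 at day −2 (vertical axis), with the 941 genes called higher in sh1 in red, the 1068 called lower in blue and the others in grey. The rises past 2-fold lie mostly among genes of few reads on the left, whereas MMP2, at −1.84, stands apart among well-covered genes.

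The 12 largest rises in sh1, among called genes whose CPM did not overlap and reached a mean of 1 CPM in the higher line, were C2orf54, C1orf116, RP11-78C3.1, AC006126.4, C4orf26, FAM71D, SKAP1, PAPPA2, ARL14, ZBED2, PAEP and LHFPL5, at log2 fold changes of 2.13 to 3.61. Nearly all were barely read in sh2. C2orf54 was at 2.001, 1.21 and 0.732 CPM in sh1 and at 0.0241, 0.102 and 0.198 CPM in sh2 (3.61 ± 0.645, adjusted p = 3e-04), from 1 to 74 reads. RP11-78C3.1, a transcript known here only by its clone name, was the most even of the set, at 9.06, 8.97 and 9.08 CPM in sh1 and 1.01, 0.894 and 1.02 CPM in sh2 (3.21 ± 0.192, adjusted p = 1.5e-12). Its control mean, 1.002 ± 0.0758 CPM, was at the level of sh2.

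C4orf26 (current symbol ODAPH), a secreted acidic phosphoprotein of enamel mineralization, was at 8.303, 7.44 and 6.88 CPM in sh1 and at 1.64, 1.69 and 0.906 CPM in sh2 (2.40 ± 0.214, adjusted p = 6.2e-09). PAPPA2, a protease that cleaves insulin-like growth factor binding proteins, was at 3.73, 2.46 and 2.49 CPM in sh1 against 0.554, 0.772 and 0.397 CPM in sh2 (2.30 ± 0.337, adjusted p = 2.6e-05). PAEP, a secreted lipocalin also called glycodelin, was at 3.14, 5.02 and 4.002 CPM against 0.747, 1.18 and 0.651 CPM (2.22 ± 0.284, adjusted p = 3.2e-06). That the lowest sh1 library of each lay above its highest sh2 library was a condition for entering this set. SKAP1, an adaptor of T cell receptor signalling (2.33), and ARL14, a small GTPase (2.28), were likewise at under 5 CPM in every library. The call of LHFPL5 was lost without sh1 replicate 3, sh2 replicate 2 or sh2 replicate 3, and the calls of the other 11 held with each of the 6 libraries left out.

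Better-read genes from the lists described below were higher in sh1 as well. MMP9, a gelatinase like MMP2, was at 39.7, 43.9 and 50.6 CPM in sh1 and at 16.2, 20.1 and 21.9 CPM in sh2 (log2 fold change 1.21, SE 0.102, adjusted p = 2e-09). The line with less MMP2 mRNA thus held more MMP9 mRNA, 2.31-fold that of the other. ZNF114, a zinc finger protein, was at 62.6, 60.8 and 56.8 CPM in sh1 against 31.1, 31.2 and 30.2 CPM in sh2 (0.96 ± 0.0765, adjusted p = 6.7e-10), and the control, at 31.5 ± 1.75 CPM, differed from sh2 by less than its SD. INHBA, the subunit of activin A, was at 110, 114 and 106 CPM in sh1 against 62.9, 63.9 and 60.2 CPM in sh2 (0.82 ± 0.0665, adjusted p = 9e-10). For INHBA the control mean of 78.6 CPM lay between the lines.

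The 12 largest falls in sh1 by the same rule were MMP2, ST8SIA1, FTH1P2, MYL5, ATOH8, FTH1P20, KCNT1, CCDC17, TLE6, COL3A1, ADAMTS8 and TRAF1, at log2 fold changes of −1.84 to −1.34. MMP2 was the largest of them, though called genes outside this rule, such as LPCAT2 (−2.16), fell further. ST8SIA1, the sialyltransferase that makes the ganglioside GD3, was at 0.974, 1.49 and 1.46 CPM in sh1 and at 4.55, 3.66 and 4.13 CPM in sh2 (−1.64 ± 0.249, adjusted p = 3.9e-05). TRAF1, an adaptor of tumour necrosis factor receptors, was at 1.97, 1.34 and 2.15 CPM against 4.55, 4.18 and 5.01 CPM (−1.34 ± 0.2295, adjusted p = 0.00018). ADAMTS8, a secreted protease with thrombospondin motifs, was at 1.43, 1.36 and 2.66 CPM against 4.75, 5.12 and 3.96 CPM (−1.35 ± 0.247, adjusted p = 4e-04).

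FTH1P2 (−1.59) and FTH1P20 (−1.49) are processed pseudogenes of the ferritin heavy chain gene FTH1, so their reads cannot be told apart with certainty from those of FTH1, which was itself lower in sh1. MYL5, KCNT1, CCDC17, ATOH8 and TLE6 were read at under 3 CPM in every library. Of the 12, MMP2, ST8SIA1, COL3A1, ADAMTS8 and TRAF1 held their call with each library left out in turn. Calls of the others were lost in 1 (FTH1P2, without sh2 replicate 1, and MYL5, without sh2 replicate 3) to 5 of those 6 fits (FTH1P20 and CCDC17).

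The genes whose log2 CPM ran most like that of MMP2 over the 6 libraries were H6PD (Pearson's r = 0.9995), SNX19 (0.9982), PRICKLE1 (0.9981), MAFG (0.9978) and DNAJB12 (0.9976). With 3 libraries in each of 2 lines, such a value mostly restates that a gene is lower in sh1, and 956 genes had an r over 0.9 and 920 an r under −0.9. H6PD, which encodes the hexose-6-phosphate dehydrogenase of the endoplasmic reticulum, was at 15.5, 16.7 and 19.5 CPM in sh1 and at 38.4, 39.3 and 42.5 CPM in sh2 (log2 fold change −1.22, SE 0.0943, adjusted p = 3.6e-10). Its order over the 6 libraries was that of MMP2, library for library. The control, however, at 36.4 ± 1.23 CPM, was close to sh2, whereas MMP2 was far higher in the control than in sh2. DNAJB12, a chaperone of the endoplasmic reticulum membrane, was at 54.3, 57.2 and 58.5 CPM against 85.99, 90.01 and 91.5 CPM (−0.65 ± 0.0681, adjusted p = 9.7e-08). MAFG, a small MAF protein that pairs with NRF2, stood at 93.99, 98.7 and 99.4 CPM against 123, 125 and 128 CPM (−0.37 ± 0.0628, adjusted p = 0.00017). SNX19 and PRICKLE1 were called lower as well, at −0.27 and −0.46.

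Of the 12 genes tested in the neighbourhood of MMP2 on chromosome 16, counting MMP2 itself, LPCAT2 was lower in sh1 and NUDT21 higher. LPCAT2, a lysophospholipid acyltransferase encoded next to MMP2, was at 0.108, 0.2802 and 0.244 CPM in sh1 and at 1.04, 0.406 and 1.47 CPM in sh2 (−2.16 ± 0.6102, adjusted p = 0.02), from 4 to 52 reads. The neighbours' median log2 fold change was −0.01, close to that of all genes. LPCAT2 lost its call without sh1 replicate 1 or sh2 replicate 1 or 3 (adjusted p up to 0.16). NUDT21, a subunit of the pre-mRNA cleavage factor, differed little (0.20) and was not called once GC content was taken into account (adjusted p = 0.21).

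Transcript GC content moved with the fold changes, and was therefore measured for every list. Over 13596 genes with a mean of at least 1 CPM, the log2 fold change of sh1 over sh2 had a Spearman correlation of −0.3156 with GC content and of −0.01413 with length, across genes, which are not independent replicates. In 5 groups of equal size by GC content, the lowest group (30.7% to 40.9% GC) had a median of 0.11, with 343 genes higher in sh1 and 59 lower. The highest group (58.5% to 83.9% GC) had a median of −0.09, with 73 higher and 375 lower. Libraries of 1 line differed in the same way among themselves. The deviation of the highest group minus that of the lowest was −0.15, −0.03 and 0.10 in the sh1 libraries and 0.08, 0.08 and 0.32 in the sh2 libraries, so both ranges overlapped.

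With an offset that removes the trend with GC content in each library, an alternative chosen after seeing the data, 2279 genes were called, 1121 higher and 1158 lower. Of the 2009 calls, 1633 remained (81.3%), each with its sign. The 5 groups then had medians of 0.0003 to 0.01, and calls of 174 higher and 185 lower in the lowest group and 227 and 246 in the highest. GC values were at hand for 84.4% of the genes tested and 96.6% of those called. MMP2, at 55.8% GC, had a log2 fold change of −1.78 with the offset. What set the GC trend between the libraries was not tested, and the counts with the offset are given beside most lists but not all.

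**Figure D3:**
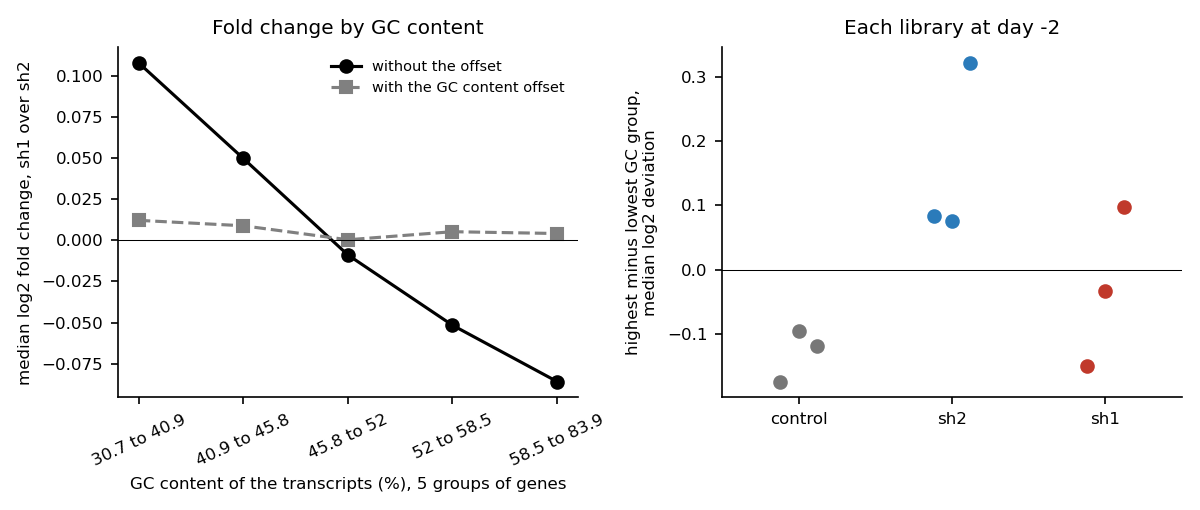
Left, median log2 fold change of sh1 over sh2 in 5 groups of genes by transcript GC content (percent), with the fit without an offset as circles falling from 0.11 to −0.09 and the fit with the GC offset as squares near 0. Right, each library at day −2 by the median log2 deviation of the highest group minus that of the lowest, where the libraries of sh1 and of sh2 overlap and sh2 replicate 3, at 0.32, is the highest.

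Genes of the extracellular matrix were mostly lower in sh1 than in sh2 where they were called. Collagens, laminins and fibrillins are the structural scaffold that osteoblast-like cells lay down, and MMP-2 belongs to the enzymes that remodel it. Of 10 fibrillar collagen genes tested, 6 were called lower in sh1 and none higher, with a median of −0.27 against −0.0012 over all genes. With the GC offset 5 remained lower, COL1A1 being the one lost, and with single libraries left out 4 to 6 were called. COL3A1, the chain of type III collagen, was at 9.57, 11.98 and 14.2 CPM in sh1 and at 27.5, 32.9 and 34.2 CPM in sh2 (log2 fold change −1.40, SE 0.117, adjusted p = 1.5e-09). The control, at 41.3 ± 1.098 CPM, was higher still, so that COL3A1 kept the same order of lines as MMP2. COL5A2, of type V collagen, was at 56.7, 75.7 and 76.9 CPM against 108, 102 and 111 CPM (−0.61 ± 0.0838, adjusted p = 8.7e-06), and COL5A1, its partner chain, was also lower (−0.40 ± 0.0822, adjusted p = 0.0016), though not called by DESeq2. COL1A1, the main collagen of bone, was at 1026, 1267 and 1331 CPM against 1334, 1458 and 1486 CPM. Its lines barely parted (−0.24 ± 0.0724, adjusted p = 0.03, adjusted p = 0.066 with the GC offset), and its call was lost without sh1 replicate 1, sh2 replicate 2 or sh2 replicate 3.

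Among 21 nonfibrillar collagens, 6 were lower in sh1 and 3 higher (6 and 3 with the GC offset, 2 lower without sh1 replicate 1, 3 lower without sh2 replicate 2, 1 higher without sh1 replicate 2 or sh2 replicate 2). The lower ones included both common chains of basement membrane collagen, COL4A1 (−0.24) and COL4A2 (−0.28), and 2 chains of type VI collagen, of which COL6A2 was at 399.6, 495 and 517 CPM against 563, 566 and 634 CPM (−0.32 ± 0.0736, adjusted p = 0.004). COL17A1, a collagen of epithelial hemidesmosomes, went the other way, at 9.38, 8.54 and 10.5 CPM against 6.86, 5.26 and 6.43 CPM (0.62 ± 0.146, adjusted p = 0.0055), a call lost without sh2 replicate 2. COL6A3, the remaining common chain of type VI collagen, was among those higher (0.23). COL4A1 lost its call without sh1 replicate 1 or sh2 replicate 1 or 2 (adjusted p up to 0.15), COL4A2 without sh1 replicate 1 or sh2 replicate 2 or 3 (adjusted p up to 0.13) and by DESeq2, and COL6A3 without sh1 replicate 2 or 3 or sh2 replicate 1, 2 or 3 (adjusted p up to 0.22).

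Of 28 matrix glycoproteins and proteoglycans, 10 were lower in sh1 and 2 higher, also with the GC offset, at a median of −0.21 (6 lower without sh1 replicate 1, 1 higher without sh1 replicate 3 or sh2 replicate 2). FBN2, of the microfibril protein fibrillin 2, was at 99.2, 122 and 120.1 CPM in sh1 and at 174, 196 and 179 CPM in sh2 (log2 fold change −0.69, SE 0.0728, adjusted p = 1.3e-07). FBN1, its paralog, was at 24.9, 29.3 and 27.2 CPM against 40.8, 45.5 and 37.8 CPM (−0.61 ± 0.0892, adjusted p = 2.5e-05). LTBP3, which holds latent TGF-beta in the matrix, was at 44.9, 64.4 and 70.3 CPM against 93.4, 94.97 and 109.7 CPM (−0.73 ± 0.1004, adjusted p = 9.8e-06). For all of these, each sh1 library lay below each sh2 library. HSPG2, the basement membrane proteoglycan perlecan (−0.56 ± 0.0873, adjusted p = 5.2e-05), and FN1, fibronectin (−0.53 ± 0.114, adjusted p = 0.0023), were lower too, FN1 with a wide spread in sh1 (394, 634 and 708 CPM). LUM and TGFBI were the members called higher. LUM lost its call without sh1 replicate 3 or sh2 replicate 2 (adjusted p up to 0.068) and with the GC offset, and FN1 by DESeq2.

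Of 28 integrin and laminin genes, 7 were lower in sh1 and 2 higher (7 and 4 with the GC offset, 5 higher without sh1 replicate 1, 6 higher in the fit of all 27 libraries). LAMA4 (−0.81 ± 0.144, adjusted p = 0.00029) and LAMB2 (−0.56 ± 0.0798, adjusted p = 1.6e-05), which encode laminin chains, were lower. CLDN4, a tight junction claudin and the only one of the 6 epithelial markers tested that was called, was higher, at 44.01, 44.4 and 47.6 CPM in sh1 against 26.9, 28.5 and 31.3 CPM in sh2 (0.65 ± 0.0827, adjusted p = 2.8e-06). The epithelial markers summed to 52.3 to 59.5 CPM in sh1 and to 35.5 to 40.6 CPM in sh2, mostly CLDN4. Whether their level plays a part in the value of COL17A1 was not tested.

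Enzymes and inhibitors that act on the matrix moved in both directions. Of 12 genes of MMP2 and its regulators, MMP2, TIMP2 and MMP14 were lower in sh1 and MMP24 higher (4 lower and 3 higher with the GC offset). TIMP2, the inhibitor that also bridges pro-MMP-2 to its activator at the cell surface, was at 273, 318 and 334 CPM in sh1 and at 398, 394 and 420.4 CPM in sh2 (log2 fold change −0.39, SE 0.0667, adjusted p = 0.00017). MMP14, that membrane-type activator, was at 93.7, 117 and 123 CPM against 130.4, 136 and 145 CPM (−0.31 ± 0.0772, adjusted p = 0.0093, lost without sh1 replicate 1). The protease, its activator and its bridging inhibitor were thus all lower in the line with less MMP2. MMP24, another membrane-type metalloproteinase, was at 91.1, 82.5 and 95.02 CPM against 63.6, 61.02 and 68.5 CPM (0.47 ± 0.0715, adjusted p = 3.6e-05).

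Among the 10 other matrix metalloproteinases tested, a list that also holds MMP24, MMP9 and MMP24 were higher and MMP3 lower, with the GC offset as well. MMP3, stromelysin 1, was at 40.8, 43.1 and 42.1 CPM in sh1 and at 51.5, 56.1 and 54.3 CPM in sh2 (−0.36 ± 0.0743, adjusted p = 0.0014). The control, at 28.2 ± 3.69 CPM, lay below both lines. Of 26 ADAM and ADAMTS proteases, 6 were lower and 1 higher (7 and 1 with the GC offset, 3 higher in the fit of all 27 libraries). ADAMTS2, which trims the ends of fibrillar procollagens, was at 23.1, 24.5 and 24.4 CPM against 35.7, 33.9 and 37.2 CPM (−0.57 ± 0.0854, adjusted p = 3.4e-05), and ADAMTS15 was lower too (−0.75 ± 0.117, adjusted p = 5.4e-05). ADAMTS6 was the member that was higher (0.56 ± 0.0943, adjusted p = 0.00014). Of 17 other protease inhibitors, A2M, the plasma inhibitor alpha-2-macroglobulin, was lower, at 2.84, 4.09 and 4.34 CPM against 9.32, 8.898 and 8.38 CPM (−1.23 ± 0.166, adjusted p = 6.6e-06), and TFPI (0.56 ± 0.0994, adjusted p = 0.00028) and SERPINA1 (0.34 ± 0.0799, adjusted p = 0.0057) were higher (1 lower and 3 higher with the GC offset). SERPINA1 lost its call without sh2 replicate 1 or 2 (adjusted p up to 0.058).

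NRF2 is the transcription factor of the antioxidant response. It pairs with small MAF proteins and binds antioxidant response elements near genes of iron storage, glutathione and NADPH supply. Of 19 NRF2 targets and metallothioneins tested, 8 were called lower in sh1 and none higher, at a median of −0.28 (6 lower with the GC offset, 5 without sh2 replicate 3). FTH1, the ferritin heavy chain, was at 727, 700.3 and 773 CPM in sh1 and at 988, 960.5 and 1152 CPM in sh2 (log2 fold change −0.50, SE 0.0657, adjusted p = 5.6e-06). NQO1, a quinone reductase, was at 101, 100.4 and 105 CPM against 126, 132 and 134 CPM (−0.36 ± 0.0628, adjusted p = 0.00025). In both of these, the lines did not overlap.

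In the control, FTH1 was at 796 ± 10.3 CPM, nearer to sh1, and its log2 fold change against the control was −0.12 in sh1 (adjusted p = 0.15) and 0.37 in sh2 (adjusted p = 0.00015). HMOX1, heme oxygenase, was lower in sh1 than in sh2 (−0.37 ± 0.0721, adjusted p = 0.00071), as were TXNRD1, thioredoxin reductase (−0.33 ± 0.0624, adjusted p = 6e-04), FTL, the ferritin light chain (−0.19 ± 0.0602, adjusted p = 0.04), and OSGIN1 (−0.42 ± 0.126, adjusted p = 0.029). SLC7A11, the cystine transporter, was at the edge (−0.24 ± 0.0798, adjusted p = 0.048), and its call was lost with any of the 6 libraries left out. FTL lost its call without sh1 replicate 2 or 3 or sh2 replicate 2 or 3 (adjusted p up to 0.18) and with the GC offset, and OSGIN1 without sh1 replicate 1 or sh2 replicate 3 (adjusted p up to 0.18) and with the GC offset.

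The promoters of this list were searched for the core of the antioxidant response element, TGACNNNGC, on both strands of the 250 bases before the gene start (RefSeq sequences, GRCh38.p14). The core was in 3830 of 35116 promoters of all genes (10.9%). Of the 8 called members, 4 had a promoter in the table and 1 of these held the core, and of 11 members not called, 8 had one and 3 held it. The matches are shown with their surroundings, with the core in capitals, because TXNRD1 was called lower and GCLM, MT2A and MT1X, with cores of the same kind, were not (log2 fold changes −0.07, −0.14 and 0.20). Metallothionein genes are alike in sequence, so their counts are uncertain. A match is a description of letters, not of binding. Cores outside these 250 bases were not searched for, so a promoter without a match does not show that the gene lacks one.
TXNRD1 (chr12:104286885-104286983, plus strand): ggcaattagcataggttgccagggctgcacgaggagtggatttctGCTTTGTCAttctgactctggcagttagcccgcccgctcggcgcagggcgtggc
GCLM (chr1:93909431-93909509, minus strand): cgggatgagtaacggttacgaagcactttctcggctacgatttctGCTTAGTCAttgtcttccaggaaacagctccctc
MT2A (chr16:56608435-56608533, plus strand): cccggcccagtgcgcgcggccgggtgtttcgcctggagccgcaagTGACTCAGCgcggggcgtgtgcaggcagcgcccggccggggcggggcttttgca
MT1X (chr16:56682220-56682280, plus strand): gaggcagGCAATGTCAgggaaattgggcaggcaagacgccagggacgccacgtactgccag

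Cells sense sterols through SREBP-2, encoded by SREBF2, which switches on the enzymes of the mevalonate pathway and the LDL receptor when sterols run low. Of 24 genes of cholesterol synthesis and uptake, 7 were called higher in sh1 and 1 lower, at a median of 0.11 (8 and 1 with the GC offset, 5 higher without sh2 replicate 2, 0 lower without sh1 replicate 1 or 2 or sh2 replicate 3). INSIG1, which holds SREBP in the endoplasmic reticulum and is itself an SREBP target, was at 57.6, 57.9 and 59.6 CPM in sh1 and at 42.2, 44.1 and 39.2 CPM in sh2 (log2 fold change 0.48, SE 0.0745, adjusted p = 5.5e-05). The lines did not overlap, and the control mean, 51.3 CPM, lay between them. MSMO1, a sterol demethylation enzyme, was at 79.0, 77.7 and 85.9 CPM against 62.4, 62.04 and 55.2 CPM (0.43 ± 0.0722, adjusted p = 0.00014). STARD4, a sterol carrier (0.45 ± 0.0679, adjusted p = 3.9e-05), and IDI1, isopentenyl diphosphate isomerase (0.43 ± 0.0949, adjusted p = 0.0027), were higher by a like amount.

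HMGCS1, an early synthase of the mevalonate pathway, was higher too (0.29 ± 0.0648, adjusted p = 0.0029). SREBF2 itself was the member that was lower, at 308, 340.5 and 356 CPM in sh1 against 376, 381 and 420.5 CPM in sh2 (−0.23 ± 0.0642, adjusted p = 0.019). SREBF2 lost its call without sh1 replicate 1 or 2 or sh2 replicate 3 (adjusted p up to 0.11). Members that were not called lay on both sides of 0, with LSS (−0.14) and TM7SF2 (−0.17), enzymes of the pathway, among those below. A core of the sterol regulatory element (TCACNCCAC, either strand) was in 0.883% of all promoters and, of the 18 members with a promoter in the table, in that of SREBF2 alone, which is shown with the core in capitals as the one member called lower.
SREBF2 (chr22:41832927-41833025, plus strand): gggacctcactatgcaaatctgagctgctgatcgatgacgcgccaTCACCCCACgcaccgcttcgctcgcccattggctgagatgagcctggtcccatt

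Of 17 genes of fatty acid synthesis, ELOVL6, an elongase of saturated fatty acids (0.40 ± 0.0782, adjusted p = 0.00091), and ELOVL5 were higher and none was lower (5 higher with the GC offset, without ELOVL5, 1 lower without sh1 replicate 3, 1 higher without sh1 replicate 2 or sh2 replicate 1, 2 or 3, 4 higher with the gene length offset, 5 higher by DESeq2 or in the fit of all 27 libraries). Of 31 glycolysis and hypoxia genes, 4 were higher and 2 lower (3 and 1 with the GC offset, 0 lower without sh1 replicate 2, 1 lower without sh1 replicate 3 or sh2 replicate 1, 2 or 3, 0 higher without sh1 replicate 3, 1 higher without sh2 replicate 1 or 2, 2 higher without sh1 replicate 1 or 2). CA12, a carbonic anhydrase, was among the higher ones (0.31 ± 0.0784, adjusted p = 0.0084). ELOVL5 lost its call without sh1 replicate 1 or 2 or sh2 replicate 1, 2 or 3 (adjusted p up to 0.15) and with the GC offset, and CA12 without sh1 replicate 3 (adjusted p = 0.051). Calls made up 11.8% of the fatty acid list and 19.4% of the glycolysis and hypoxia list, against 10.7% of all genes.

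Genes of the cell cycle were taken as lists of entry from G1, of replication and of mitosis. D-type and E-type cyclins drive cells past the G1 checkpoint and CDK inhibitors hold them back. Of 22 such genes, 8 were lower in sh1 and 1 higher, without and with the GC offset alike, at a median of −0.14 (3 lower without sh1 replicate 2, 5 lower without sh2 replicate 2). CCND1, cyclin D1, was at 190, 186 and 183 CPM in sh1 and at 246, 245 and 249 CPM in sh2 (log2 fold change −0.41, SE 0.0589, adjusted p = 2.2e-05). Its control, at 288 ± 4.98 CPM, was higher than both lines, the same order as for MMP2. CCND2, cyclin D2, went up, at 189, 198 and 198 CPM against 156, 157 and 159 CPM (0.31 ± 0.0602, adjusted p = 0.00071). CDKN1A, the inhibitor p21, was at 146, 138 and 154 CPM against 189, 187 and 211 CPM (−0.43 ± 0.0650, adjusted p = 4.2e-05), so a driver and a brake of the same step were both lower. CCNE1, cyclin E1, was lower too (−0.38 ± 0.0681, adjusted p = 0.00035).

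Of 35 DNA replication genes, 4 were higher in sh1 and 4 lower (6 and 5 with the GC offset, 2 higher without sh1 replicate 1 or 2 or sh2 replicate 2 or 3, 8 higher in the fit of all 27 libraries). RFC5, a subunit of the clamp loader, was at 38.1, 31.9 and 34.3 CPM in sh1 and at 62.2, 58.9 and 59.99 CPM in sh2 (log2 fold change −0.80, SE 0.0789, adjusted p = 3.9e-08). RRM2, of ribonucleotide reductase (−0.40 ± 0.0582, adjusted p = 2.3e-05), and MCM3, of the replicative helicase (−0.35 ± 0.0585, adjusted p = 0.00013), were lower, whereas MCM6 and the primase gene PRIM1 (0.33 ± 0.0774, adjusted p = 0.0057) were higher. Of 36 mitosis genes, BIRC5, survivin (0.30 ± 0.0637, adjusted p = 0.0022), and AURKA were higher and PLK1 lower (3 and 1 with the GC offset, 0 lower without sh1 replicate 2 or sh2 replicate 2 or 3, 1 higher without sh1 replicate 1 or sh2 replicate 1, 2 or 3, 5 higher in the fit of all 27 libraries), a share of 8.33% against 10.7% of all genes. AURKA lost its call without sh1 replicate 1 or sh2 replicate 1, 2 or 3 (adjusted p up to 0.11), and PLK1 without sh1 replicate 2 or 3 or sh2 replicate 2 or 3 (adjusted p up to 0.15) and with the GC offset.

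**Figure D4:**
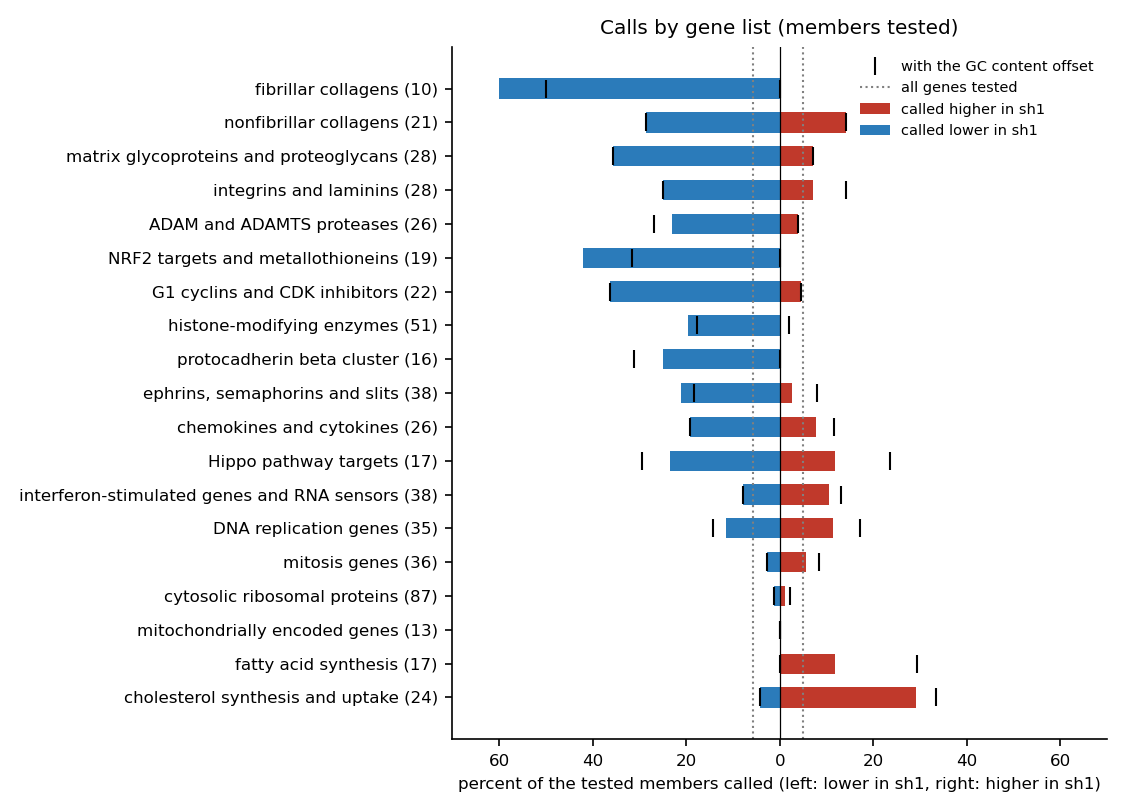
Percent of the tested members of 19 gene lists called lower (blue, to the left) or higher (red, to the right) in sh1 than in sh2 at day −2, with the number tested in brackets, the counts with the GC offset as black ticks and the shares over all genes, 5.69% and 5.01%, as dotted lines. Collagens, NRF2 targets and G1 genes reach far to the left, cholesterol genes to the right, and ribosomal and mitochondrial genes hardly show.

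Genes of chromatin were of interest because MMP-2 was described as a histone protease. Of 51 histone-modifying enzymes, 10 were lower in sh1 and none higher, at a median of −0.13 (9 lower and 1 higher with the GC offset, 5 lower without sh1 replicate 1, 6 lower without sh2 replicate 1 or 2). KDM5B, a demethylase of histone H3 lysine 4, was at 33.0, 38.6 and 35.99 CPM in sh1 and at 52.6, 52.9 and 46.8 CPM in sh2 (−0.50 ± 0.0818, adjusted p = 9.8e-05). KDM6B, a demethylase of lysine 27, was at 19.3, 26.2 and 24.8 CPM against 29.8, 32.5 and 37.98 CPM (−0.51 ± 0.105, adjusted p = 0.0015). The acetyltransferases EP300 (−0.27) and CREBBP (−0.22) and the methyltransferase DOT1L (−0.38) were lower by smaller amounts. CREBBP lost its call without sh1 replicate 1 or sh2 replicate 1 or 2 (adjusted p up to 0.13).

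Of 50 histone genes, as far as poly(A) selection retains them, 5 were lower in sh1 and 1 higher (12% called against 10.7% of all genes, 6 and 1 with the GC offset). The higher one, HIST1H2AC (0.21), lost its call without sh1 replicate 1, 2 or 3 or sh2 replicate 1, 2 or 3 (adjusted p up to 0.2), with no filter on low counts and in thinned libraries. HIST1H1C, a linker histone, was at 172, 161 and 162 CPM in sh1 and at 222, 227 and 263 CPM in sh2 (log2 fold change −0.52, SE 0.0661, adjusted p = 2.8e-06). The control, at 136 ± 14.7 CPM, was below both lines. Of 463 zinc finger genes named ZNF, 23 were lower and 10 higher (7.13% against 10.7% of all genes, 25 and 9 with the GC offset, 11 lower without sh1 replicate 2, 13 lower without sh2 replicate 1 or 2, 14 lower without sh2 replicate 3, 15 lower without sh1 replicate 1, 5 higher without sh1 replicate 1, 6 higher without sh2 replicate 2 or 3), ZNF114 among the latter. ZNF730, at 13 to 18 reads in the sh1 libraries and 0 to 2 in those of sh2, was higher in sh1, from counts too low for a firm fold change. Of 33 HOX genes, HOXB13 (−0.68 ± 0.121, adjusted p = 0.00027) and HOXC9 were lower, a share of 6.06% against 10.7% of all genes. ZNF730 lost its call without sh1 replicate 1 or sh2 replicate 2 or 3 (adjusted p up to 0.1), and HOXC9 without sh1 replicate 2 or sh2 replicate 1 (adjusted p up to 0.099).

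At the cell surface, the beta protocadherins mostly lay below 0, though few were called. These neural-type adhesion proteins are encoded in tandem on chromosome 5, and their exons are alike, so reads may be shared among them. Of 16 PCDHB genes tested, 15 had a log2 fold change below 0, at a median of −0.49 (−0.49 with the GC offset), but 4 were called, none higher (1 lower without sh1 replicate 1 or sh2 replicate 2, 8 lower in the fit of all 27 libraries). PCDHB10 was at 1.78, 1.68 and 1.66 CPM in sh1 and at 3.08, 3.64 and 4.02 CPM in sh2 (−1.07 ± 0.239, adjusted p = 0.0034) and was the one whose call held with every library left out. Summed over the cluster, the sh1 libraries held 73.6 to 104.1 CPM and the sh2 libraries 110.2 to 113.3 CPM. Of 32 alpha and gamma protocadherins, only PCDHGB6 was called, lower. PCDHGB6 lost its call without sh1 replicate 1 or 3 or sh2 replicate 1 or 3 (adjusted p up to 0.29) and in the fit of 9 libraries.

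Of 14 cadherins, CDH13, CDH11 and CDH2 were lower in sh1 (3 lower and 1 higher with the GC offset), CDH13, which lacks a cytoplasmic domain, at 33.4, 39.1 and 34.04 CPM against 50.5, 62.4 and 54.8 CPM (−0.66 ± 0.0856, adjusted p = 4.5e-06). The list as a whole leaned the other way, with 8 of 14 members above 0 and a median of 0.17. CDH2 lost its call without sh1 replicate 2 or 3 or sh2 replicate 1 or 2 (adjusted p up to 0.16), and CDH11 without sh2 replicate 2 (adjusted p = 0.054). Among 38 ephrins, semaphorins, slits and their receptors, 8 were lower and 1 higher (7 and 3 with the GC offset, 4 lower without sh1 replicate 1, 5 lower without sh1 replicate 3 or sh2 replicate 3, 2 higher without sh1 replicate 1, 3 higher in the fit of all 27 libraries). EFNA2, a membrane-anchored ephrin ligand, was at 5.301, 4.31 and 5.29 CPM in sh1 and at 10.1, 10.9 and 13.2 CPM in sh2 (log2 fold change −1.20, SE 0.146, adjusted p = 1.5e-06). The receptor genes EPHB3 (−0.61 ± 0.101, adjusted p = 0.00012) and EPHB1 (0.59 ± 0.1301, adjusted p = 0.0031) went in opposite directions.

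Secreted signals differed gene by gene. Of 29 TGF-beta and BMP genes, 2 were higher in sh1 and 4 lower (2 and 3 with the GC offset, 1 lower without sh1 replicate 2, 1 higher without sh1 replicate 2 or 3 or sh2 replicate 1 or 2). Together with the rise of INHBA, the activin antagonist FST, follistatin, was lower, at 46.4, 45.5 and 46.7 CPM in sh1 against 70.8, 69.6 and 64.7 CPM in sh2 (log2 fold change −0.57, SE 0.0718, adjusted p = 2.6e-06), and the related FSTL3 was lower as well (−0.29, lost without sh1 replicate 2). An activin subunit and its binding antagonists thus moved apart. Among 35 WNT and Notch genes, WNT11 was at 5.25, 5.47 and 7.37 CPM against 2.62, 2.23 and 1.93 CPM (1.41 ± 0.203, adjusted p = 2.1e-05), and 4 genes were lower, including NOTCH1 (−0.34 ± 0.0785, adjusted p = 0.0045) and the receptor FZD7 (−0.39 ± 0.0892, adjusted p = 0.0044), with 5 lower and 2 higher with the GC offset (2 higher without sh1 replicate 3). The control mean of WNT11, 5.38 CPM, was at the level of sh1.

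Of 12 genes of the insulin-like growth factor axis, 3 were lower (3 with the GC offset, 5 lower without sh1 replicate 3) and none higher. IGFBP7, a secreted binding protein, was at 20.5, 27.2 and 29.4 CPM in sh1 and at 43.02, 37.7 and 40.9 CPM in sh2 (−0.66 ± 0.101, adjusted p = 5e-05), with IGFBP4 (−0.46 ± 0.0698, adjusted p = 3.7e-05) and the adaptor IRS1 (−0.27 ± 0.0595, adjusted p = 0.0028). Of 26 chemokine and cytokine genes, 5 were lower and 2 higher (5 and 3 with the GC offset, 0 higher without sh1 replicate 1 or sh2 replicate 1, 1 higher without sh1 replicate 2 or sh2 replicate 2). The chemokine CXCL12 (−1.32 ± 0.347, adjusted p = 0.013, lost without sh2 replicate 1) and its scavenging receptor ACKR3 were both lower, ACKR3 at 16.2, 18.3 and 17.6 CPM against 38.6, 39.7 and 44.1 CPM (−1.23 ± 0.0903, adjusted p = 1.4e-10). CSF1, the macrophage growth factor, was lower too (−0.75 ± 0.0973, adjusted p = 4.4e-06).

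Osteoblast genes included ALPL, the alkaline phosphatase of mineralizing bone, at 6.98, 4.53 and 6.17 CPM in sh1 and at 2.601, 3.29 and 2.97 CPM in sh2 (log2 fold change 0.99, SE 0.196, adjusted p = 0.00098). TNFRSF11B, osteoprotegerin, a decoy for the ligand that drives osteoclasts, was higher as well (0.73 ± 0.119, adjusted p = 9.9e-05). Of 12 genes of the list, 3 were higher and 1 lower (2 and 0 with the GC offset, where SPP1 and COL1A1 were lost). SPP1 lost its call without sh1 replicate 1 or 3 or sh2 replicate 1 or 3 (adjusted p up to 0.13) and with the GC offset, and COL1A1 without sh1 replicate 1 or sh2 replicate 2 or 3 (adjusted p up to 0.19) and with the GC offset. Of 17 genes of the Hippo pathway and its targets, 4 were lower and 2 higher (5 and 4 with the GC offset, 1 higher without sh1 replicate 2 or sh2 replicate 1, 2 or 3, 4 higher by DESeq2, in the fit of 9 libraries or in the fit of all 27 libraries), F3, tissue factor, by the most (−0.71 ± 0.116, adjusted p = 0.00011). Of the pathway itself, YAP1 was higher (0.28, adjusted p = 0.0034) and TEAD4 lower (−0.37, adjusted p = 0.00028). Of 23 immediate early genes, DUSP1 (−0.46 ± 0.0770, adjusted p = 0.00012), JUN (−0.28 ± 0.0639, adjusted p = 0.0044) and IER3 were lower (13% called against 10.7% of all genes, 3 lower and 1 higher with the GC offset). IER3 lost its call without sh1 replicate 1 or 2 or sh2 replicate 2 (adjusted p up to 0.095).

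Genes that a hairpin could touch through RNA sensing or through load on the interference machinery were examined as well. Of 38 interferon-stimulated genes and RNA sensors, 4 were higher in sh1 and 3 lower (5 and 3 with the GC offset, 1 lower without sh1 replicate 2, 2 higher without sh1 replicate 1 or sh2 replicate 1 or 2), at a median of 0.05 and at like sums, 832.9 to 858 CPM in sh1 and 823 to 836 CPM in sh2. SAMD9 was higher (0.60 ± 0.112, adjusted p = 0.00045), whereas TRIM22 (−0.54 ± 0.100, adjusted p = 0.00048) and IFIT3 (−0.80 ± 0.187, adjusted p = 0.0053, lost without sh1 replicate 2) were lower. Of 14 genes of the RNA interference machinery, DGCR8, the partner of the nuclease Drosha, was called lower (−0.29 ± 0.0767, adjusted p = 0.014), a call lost without sh1 replicate 1 or 2 or without sh2 replicate 2 or 3 (1 lower and 1 higher with the GC offset). That was 7.14% of the list against 10.7% of all genes. Of 18 HLA and antigen presentation genes, HLA-DPA1 (1.57 ± 0.293, adjusted p = 5e-04) and HLA-DMA were higher, at under 4 CPM, a share of 11.1%. HLA-DMA lost its call without sh1 replicate 2 or 3 or sh2 replicate 1, 2 or 3 (adjusted p up to 0.35), with the replicate block and in thinned libraries.

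Of the genes of stress and housekeeping functions, the ribosomal and mitochondrial ones were rarely called. Of 25 ATF4 and unfolded protein response genes, 1 was higher and 3 lower (5 and 2 with the GC offset, 0 lower without sh1 replicate 2, 1 lower without sh1 replicate 1 or sh2 replicate 2 or 3, 0 higher without sh1 replicate 2 or 3 or sh2 replicate 1, 3 higher without sh2 replicate 3), with HSPA5, the chaperone BiP, at 0.21. HSPA5 lost its call without sh1 replicate 2 or 3 or sh2 replicate 1 (adjusted p up to 0.12). None of the 13 mitochondrially encoded genes was called (1 lower without sh1 replicate 3, 1 higher without sh1 replicate 1 or sh2 replicate 3). Of 87 ribosomal protein genes, RPL22L1 was higher, at 142, 115 and 135 CPM against 102, 93.99 and 96.7 CPM (0.42 ± 0.0713, adjusted p = 0.00016), and 1 member was lower (2 higher and 1 lower with the GC offset, 0 lower without sh1 replicate 2 or 3 or sh2 replicate 3, by DESeq2 or in the fit of all 27 libraries, 2 lower without sh2 replicate 2, 2 higher without sh2 replicate 3, 3 higher with at least 10 counts in every library, in the fit of all 27 libraries or with the gene length offset, 5 higher by DESeq2), a share of 2.30%. Among the markers, ALPL was higher and COL1A1 lower of 10 mesenchymal genes, and EGFL7, the only endothelial marker called, was lower (−0.24 ± 0.0738, adjusted p = 0.037, adjusted p = 0.17 with the GC offset). EGFL7 lost its call without sh1 replicate 1 or 2 or sh2 replicate 2 or 3 (adjusted p up to 0.2) and with the GC offset.

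The difference between the lines was then followed into denser cultures. In fits of their own, sh1 against sh2 gave 3496 calls at day 0 (18.5% of 18875 genes tested) and 1527 at day 2 (7.86% of 19427). A test of whether the log2 fold change itself differed from that at day −2 called 92 of 20091 genes for the confluent day (0.458%) and 305 of 20706 for the overconfluent day (1.47%), and 46 and 166 of these were among the 2009 genes called at day −2. MMP2 was lower in sh1 at every day, with log2 fold changes of −1.84, −1.41 and −1.52, and neither change of it passed the test (adjusted p = 0.083 and 0.19). INHBA likewise was higher at every day, at 0.82, 0.96 and 0.67 (adjusted p of the change 0.65 and 0.66).

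Several matrix genes had a smaller gap in the denser cultures. Most genes followed here were named for their values at day −2, and some by the test of the change itself. The libraries of day −2 also enter that test, so this choice favours gaps that shrink. COL3A1 went from −1.40 at day −2 over −0.84 at day 0 to −0.37 at day 2, a change of 1.03 by day 2 (adjusted p = 0.00031). FBN1 went from −0.61 to 0.28, a change of 0.89 (adjusted p = 2e-04), and LTBP3 from −0.73 to −0.01 (change 0.72, adjusted p = 0.0052). The fitted values of COL1A1 and MMP14 changed sign, COL1A1 from −0.24 to 0.27 (adjusted p of the change 0.0063) and MMP14 from −0.31 to 0.39 (adjusted p of the change 0.00026). The test of the change does not say whether a value at day 2 differs from 0. A2M and H6PD also came together, by 1.35 and 0.89 on the log2 scale (adjusted p = 1.6e-06 and 9.6e-06). At day 2, A2M was at 163 CPM in sh1 and 150 CPM in sh2 on average, far above its level at day −2 in both lines. Each change named here kept its call with any of the 12 libraries left out, whereas the calls of COL1A1 and MMP14 at day −2 itself did not.

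Other genes parted further, changed sign or had a gap that shrank. SLC7A11, whose call at day −2 was lost with any of the 6 libraries left out, was lower in sh1 at that day (−0.24) and higher at day 0 (0.84) and day 2 (0.56), with changes of 1.08 and 0.80 (adjusted p = 9.8e-09 and 0.00013). The gap in ZNF114 shrank from 0.96 to 0.20 and 0.09 (adjusted p of the changes 0.00016 and 4.1e-05), and that in C4orf26 from 2.40 to 0.03 (adjusted p = 0.00089). HIST1H1C and NOV, a matricellular CCN protein, fell further behind in sh1, NOV from −0.25 to −1.31 (adjusted p of the change 7.8e-07). NOV lost its call at day −2 itself without sh1 replicate 1 or 2 or sh2 replicate 1 or 2 (adjusted p up to 0.14). MMP9, at 1.21 at day −2, stood at 0.43 at day 0 and 1.31 at day 2, and its dip at day 0 passed the test (adjusted p = 0.029), but not in 7 of 12 fits with a library left out (adjusted p up to 0.15). MMP24 went from 0.47 to −0.45 at day 2 (adjusted p of the change 9.4e-06).

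**Figure D5:**
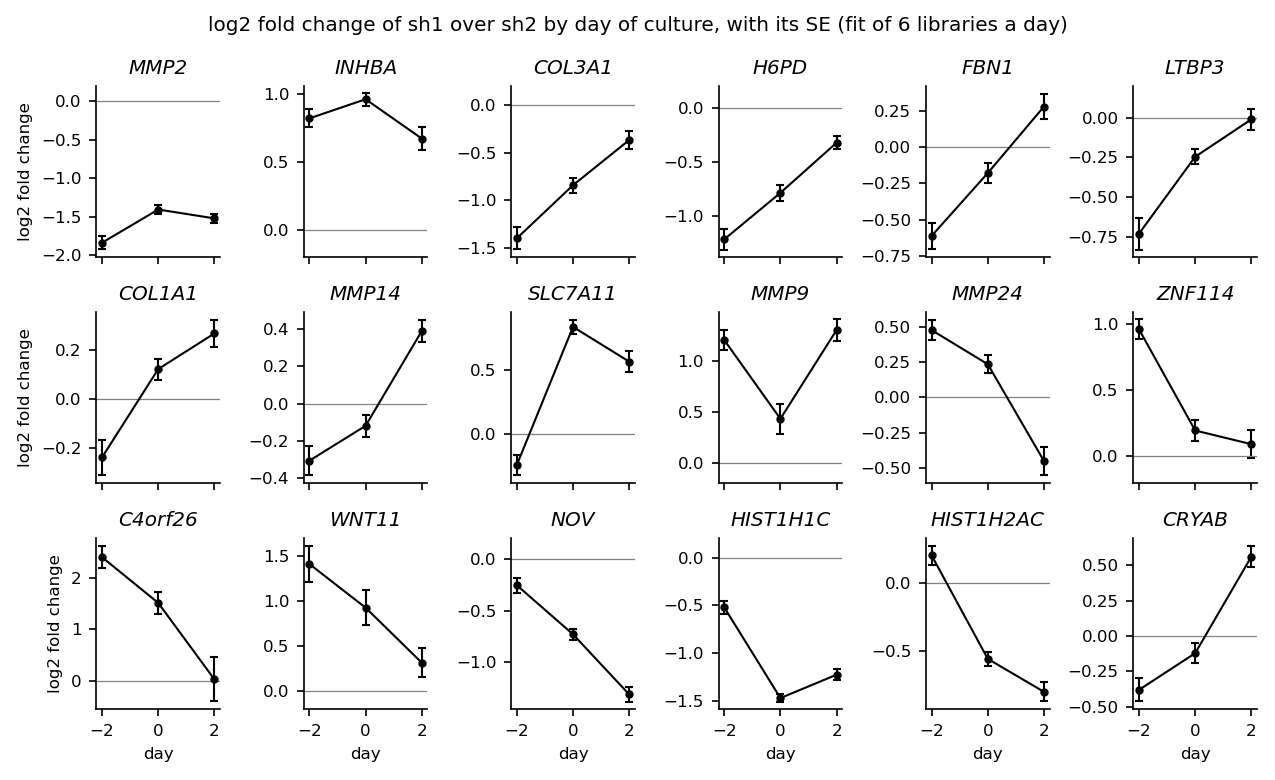
Log2 fold change of sh1 over sh2 (vertical axis, scaled per gene) with its SE at days −2, 0 and 2 (horizontal axis) for 18 genes, each day from its own fit of 6 libraries. MMP2 and INHBA stay on their side of 0 throughout, COL3A1 and H6PD approach 0, and FBN1, COL1A1, MMP14, SLC7A11, MMP24, HIST1H2AC and CRYAB cross it.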

How the data were processed

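Per the labels and the methods of the study, the authors used Trim Galore 0.6.0 for trimming, STAR 2.7.3a for alignment to hg19 and HTSeq 2.0.0 (union mode) for counting. Each deposited file holds the raw count of every gene symbol, not normalized. Its 5 HTSeq summary lines name no gene, held 16.77% to 17.78% of the total in the 6 libraries and were left out. Counting ignored the strand and dropped reads on overlapping exons, which makes counts of overlapping, antisense and near-identical genes uncertain.

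Both groups were taken from the sample titles. The 3 libraries of sh1 and the 3 of sh2 at day −2 were fitted with edgeR 4.0.16 in R 4.3.3 (TMM scaling, filterByExpr with a minimum count of 10 and a minimum total of 15, two-sided quasi-likelihood test, p-values adjusted by Benjamini and Hochberg). Genes were called below an adjusted p of 0.05. The SE was taken as the size of the log2 fold change over the square root of F. CPM were scaled with TMM factors of all 27 libraries. The change of the difference with density was tested as the interaction of line and day on 12 libraries. Libraries held 38189472 to 52076004 counts on genes. The p-values measure the spread between libraries of single lines.

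Named genes were MMP2 and CTSB, the 12 largest rises and 12 largest falls among called genes with no overlap and a mean of at least 1 CPM in the higher line, up to 4 called members of each list, up to 5 genes per interaction and the 5 genes most like MMP2. Other list members named beside their counts were chosen after their values were seen. The comparison, the lists and these rules were chosen with earlier results of these data known. Alternatives were median-of-ratios scaling, no filter or at least 10 counts in every library, DESeq2 1.42.0, fits on 9 or all 27 libraries, a replicate block, thinned libraries, each library left out and, added after seeing the data, offsets for GC content or gene length (lowess, span 0.3). The scripts were tested on simulated data. Gene positions are from GENCODE on GRCh37 and promoters from RefSeq on GRCh38.p14. No duplicate library was found (libraries of a line differed by a chi-square of 7.84 to 24.9 per degree of freedom). The ChIP-Seq data of the study were not used here, and results of a few genes are not reported here.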

Additional observations from a re-analysis of the deposited data

Results flagged for a closer look

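For the genes named here, the log2 fold change of sh1 over sh2 at a later day differed from that at day −2 in the test of the difference itself, and the value given is the later day minus day −2. Most of these genes were named for their values at day −2, which also enter this test, a choice that favours gaps that shrink. By the confluent day, 11 genes named here passed this test. The gap moved up in SLC7A11 (1.08), FZD7 (0.59), ACKR3 (0.50) and COL5A2 (0.46). It moved down in RP11-78C3.1 (−1.77), HIST1H1C (−0.95), MMP9 (−0.78), ZNF114 (−0.77), HIST1H2AC (−0.76), NOV (−0.48) and RPL22L1 (−0.40).

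Left out 1 at a time, the 12 libraries took the call from RP11-78C3.1 (9 fits, adjusted p up to 0.32), ACKR3 (9 fits, adjusted p up to 0.12), COL5A2 (8 fits, adjusted p up to 0.13), MMP9 (7 fits, adjusted p up to 0.15) and RPL22L1 (7 fits, adjusted p up to 0.13) and, without sh1 replicate 3 of day 0, from FZD7 (adjusted p = 0.058). ACKR3 and RP11-78C3.1 also missed it in the fit of all 27 libraries.

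By the overconfluent day, 27 genes named here passed it. Genes of the matrix and its remodelling moved up, with COL3A1 (1.03), FBN1 (0.89), LTBP3 (0.72), MMP14 (0.69), COL5A2 (0.62) and COL1A1 (0.50). So did the inhibitor A2M (1.35), the IGF-binding IGFBP7 (0.97), the chaperone CRYAB (0.94), the enzymes ST8SIA1 (1.13) and H6PD (0.89), and SLC7A11 (0.80), NDRG1 (0.65), FZD7 (0.52), NOG (0.40), CCNE1 (0.39) and CCND1 (0.29). The gap moved down in C1orf116 (−2.75), C4orf26 (−2.38), WNT11 (−1.10), NOV (−1.06), HIST1H2AC (−1.01), MMP24 (−0.93), ZNF114 (−0.87), HIST1H1C (−0.71) and RPL22L1 (−0.51). For ZNF730 (−6.0) the fitted value rests on 0 to 2 reads in the sh2 libraries of day −2 and gives no size. COL5A2, FZD7, SLC7A11, NOV, HIST1H1C, HIST1H2AC, RPL22L1 and ZNF114 passed at both days, and both tests share the libraries of day −2. With 1 of 12 libraries left out, calls were lost for CCND1 (10 fits, adjusted p up to 0.1), NOG (9 fits, adjusted p up to 0.11), ZNF730 (8 fits, adjusted p up to 0.15), C1orf116 (7 fits, adjusted p up to 0.087), CCNE1 (6 fits, adjusted p up to 0.092), WNT11 (6 fits, adjusted p up to 0.08), FZD7 (5 fits, adjusted p up to 0.086) and ST8SIA1 (3 fits, adjusted p up to 0.061). CCND1, NOG, ZNF730 and C1orf116 also missed the threshold with the replicate block, and C1orf116 in the fit of all 27 libraries. DESeq2 gave no adjusted p for ZNF730.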

How the results depend on the processing

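The number of genes called was 2009, and 1208 to 1946 with 1 library left out, moving by over 1.5 times without sh1 replicate 1 (1208), sh1 replicate 2 (1293) or sh2 replicate 2 (1282). Lower calls then numbered 655 to 1040 and higher calls 553 to 906. Higher calls rose from 941 to 1417 in the fit of all 27 libraries and to 1434 with a replicate block. The block gave 2974 calls in all. With the block, 2006 of the 2009 calls remained and the SE of MMP2 was 0.0602 against 0.0853. Deviations of same-numbered libraries from their line means correlated at 0.03811, 0.04893 and 0.09665, small values, yet every library correlated best with its own number. The labels do not say whether the numbers mark pairs, and the main test did not use them as pairs. The other settings gave 2003 to 2346 calls, among them 2172 by DESeq2. The change of the difference by the confluent day was called for 92 genes, and for 187 without the filter, 168 by DESeq2, 239 with the GC offset and 45 to 178 with 1 library left out (178 without sh2 replicate 3 of day −2, 45 without sh1 replicate 2 or 3 of day 0). By the overconfluent day it was called for 305, and for 474 by DESeq2, 530 in the fit of all 27 libraries, 516 with the GC offset and 175 to 343 with 1 library left out (175 without sh2 replicate 1 of day 2). The causes were not tested. The log2 fold change of MMP2 kept its sign and its call in every setting. Of 1538 values of the 155 named genes that were called, 29 missed the threshold in other settings, as did 162 of 930 with 1 library left out, 19 (without sh1 replicate 3) to 31 (without sh2 replicate 2) a library, and none of these values changed sign. Of the 6 named genes not called, 6 of 36 values changed sign with 1 library left out.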
